A study of Mus musculus with 2 samples.

Results

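miR-221 and miR-222 are a pair of mouse microRNAs (miRNAs) whose genes lie next to each other on chromosome X. The array carried 1 mouse probe for each, found by the names mmu-miR-221 and mmu-miR-222, and these are 2 of the 373 mouse miRNAs compared. It held 0 mouse probes named for the starred arms of these hairpins and 0 mismatch probes for them. The cells were of the mouse line G2N2C, from basal cell carcinoma (BCC) of the skin, taken 48 h after transfection with a Stealth-D3 oligonucleotide or with Stealth-ctr, its control. D3 is the type 3 deiodinase encoded by Dio3, which inactivates thyroid hormone. Cells of both conditions grew in low calcium with keratinocyte growth factor and 8% fetal bovine serum freed of calcium by chelation, and RNA of 3 experiments per condition was pooled. The D3 pool and the control pool shared 2 two-colour arrays: on array 1 the D3 pool was labelled with Cy3 and that of the controls with Cy5, and on array 2 the dyes were exchanged.

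That gives 1 replicate per condition, from 1 cell line. No p-value between conditions could be computed, the SDs below are technical (over the 2 arrays), and precision is limited by having 2 arrays. The Dio3 transcript was not analysed here, so how far D3 was lowered is unknown. Whether the deposited ratios are Cy5 over Cy3 or the reverse is not given in the sources used. Values were therefore turned so that a positive sign is the side on which miR-21, the miRNA farthest from 0, lies. With Cy5 over Cy3 a positive value would mean a higher level in the D3 pool, and with Cy3 over Cy5 a higher level in the control pool.

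Mature miRNAs guide Argonaute proteins to messenger RNAs, mainly by pairing of bases 2 to 8, the seed, and lower the output of those messages. miR-221 and miR-222 are processed from a shared primary transcript and are best known, from human tumour cells, as repressors of the cell-cycle inhibitor CDKN1B (p27Kip1) and of the receptor KIT. They are abundant in many epithelial tumours and in endothelial cells.

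The mature sequences, from RefSeq (GRCm38.p6), are shown because the seed defines which messages the miRNAs can pair with. Capitals mark the seed. The array names carry no arm, and in miRNA nomenclature of that form the unstarred product of these hairpins is the 3p arm. The 5p arm of miR-221 and miR-21, used for the sign, are given for contrast.
miR-221-3p: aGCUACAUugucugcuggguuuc
miR-222-3p: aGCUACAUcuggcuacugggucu
miR-221-5p: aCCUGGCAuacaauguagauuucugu
miR-21a-5p: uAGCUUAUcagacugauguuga

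Both 3p miRNAs are 23 bases long and begin with the same 8 bases, AGCUACAU, so that they share the seed GCUACAU and the complementary message site ATGTAGC (DNA letters). After base 8 their longest common run is CUGGGU, of 6 bases. Position by position 11 bases are identical, and a gapped alignment of 24 columns has 19 identities. Among 1679 mature mouse miRNAs in RefSeq, 3 have this seed. The third is miR-1928, and 0 further miRNAs of those compared had it. The seeds of miR-221-5p and miR-21a-5p are different.

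The hairpins lie on the minus strand of chromosome X in GRCm38.p6, Mir221 at chrX:19146294-19146388 and Mir222 at chrX:19146893-19146971. They are 504 bases apart and together span 678 bases. The RefSeq gene table has 0 other genes over this span, which makes the pair intergenic there. The nearest gene on the higher-coordinate side is the long non-coding RNA Gm14636, 9.50 kb away, and on the other side the pseudogene Gm5383, 203059 bases away. The nearest protein-coding genes are Tex13c3 at 332 kb and Dipk2b at 685 kb. The hairpins are printed with the 3p arm in capitals, to show where the probed product sits.
Mir221: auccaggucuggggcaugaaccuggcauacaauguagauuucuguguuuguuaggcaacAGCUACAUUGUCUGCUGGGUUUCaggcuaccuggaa
Mir222: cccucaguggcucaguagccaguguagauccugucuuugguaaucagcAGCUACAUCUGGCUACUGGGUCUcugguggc

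The comparison asked whether the levels of this pair differed between D3-interfered and control cells. On both arrays the pair lay on the same side as miR-21. The deposited log2 dye ratio of miR-221 was -0.96 on array 1 and 0.97 on array 2. That of miR-222 was -0.47 on array 1 and 1.63 on array 2. For both miRNAs the sign changed when the dyes were exchanged, as it does when a ratio follows the pool and not the dye.

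Turned, miR-221 had 0.96 and 0.97 on the log2 scale, a mean of 0.97 ± 0.01 (technical SD, 2 arrays) or 1.96-fold between the pools. miR-222 had 0.47 and 1.63, a mean of 1.05 ± 0.82 or 2.06-fold. The arrays of miR-221 were nearly equal, while those of miR-222 ran from 1.38-fold to 3.09-fold. The mean of each exceeded its technical SD, but an SD over 2 arrays of the same pools does not measure the spread between experiments. For scale, miR-21, a miRNA raised in many tumours, had 3.08 and 4.12. In descending order of the mean, miR-222 stood at place 17 and miR-221 at place 19 of 373.

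**Figure D1:**
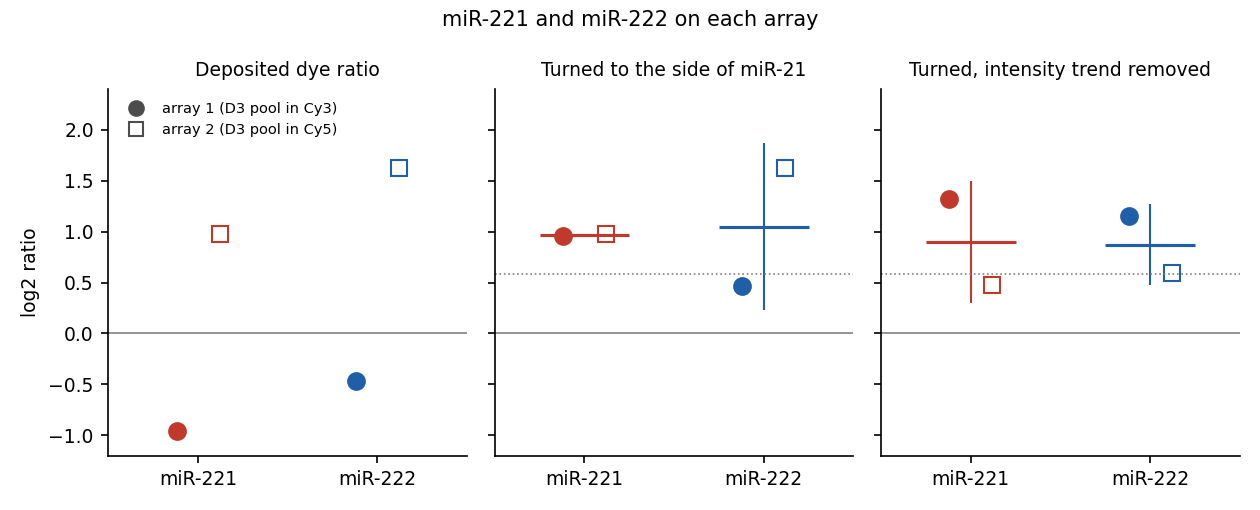
Log2 ratios of miR-221 (red) and miR-222 (blue) on array 1 (filled circles) and array 2 (open squares): as deposited, turned to the side of miR-21, and turned after removal of the intensity trend. Horizontal bars are means over the 2 arrays, vertical lines the technical SD, and the dotted line 1.5-fold. Both miRNAs change sign with the dyes in the left panel and are above 0 on both arrays in the other panels.

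The rule of size asked for turned values of one sign on the 2 arrays and for a mean of at least 1.5-fold, which is 0.585 on the log2 scale. Both miR-221 and miR-222 passed it, on the side of miR-21, as did 33 of 373 miRNAs (8.85%). On both sides together 45 passed (12.1%). At 2-fold, 15 passed on that side (4.02%), miR-222 among them and miR-221, with 1.96-fold, just below. The median of the pair was 1.01, beside 0.08 over all 373 miRNAs.

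Both probes were in the brighter part of the array. The average log2 intensity in the authors' deposited table was 8.87 for miR-221 and 10.2 for miR-222, at places 66 and 31 of 373, beside a median of 7.16. Brightness also depends on the probe, so this does not order the levels of the 2 miRNAs. It matters for the ratios, because these rose with brightness on both arrays: over all 2101 probes of the authors' table, the deposited ratio correlated with average intensity with r = 0.51 on array 1 and 0.57 on array 2 (across probes, which are not independent replicates). Of the 66 miRNAs at least as bright as miR-221, 41 had a positive deposited ratio on both arrays, following the dye. Both miR-221 and miR-222 were among the 19 that followed the pools on the side of miR-21, and 6 followed the pools on the opposite side.

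The share past the rule was also higher among bright probes: 17 of these 66 passed on the side of miR-21 (25.8%), against 8.85% of all. Read against that share, 2 of 2 is less uncommon than against all miRNAs. The 66 were cut at the brightness of miR-221, and the pair is itself among the 17. As products of a shared primary transcript, the 2 miRNAs are also not independent outcomes.

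**Figure D2:**
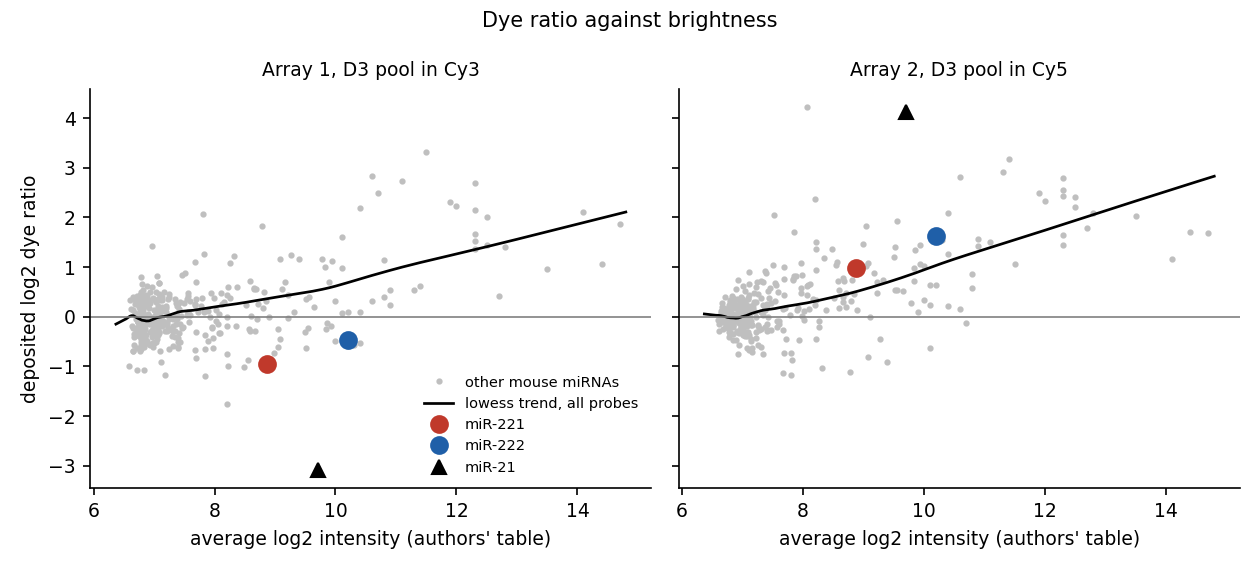
Deposited log2 dye ratio against the authors' average log2 intensity on each array, for 373 mouse miRNAs. The black line is the lowess trend over all 2101 probes. miR-221 (red) and miR-222 (blue) lie below the trend on array 1 and above it on array 2, as miR-21 (triangle) does.

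The smooth trend predicted 0.36 on array 1 and 0.50 on array 2 at the brightness of miR-221, and 0.69 and 1.03 at that of miR-222. With it removed, miR-221 had 1.32 and 0.47 on the turned arrays, a mean of 0.90 ± 0.60 or 1.86-fold. miR-222 then had 1.15 and 0.59, a mean of 0.87 ± 0.40 or 1.83-fold. Both means stayed past 1.5-fold with the same sign on both arrays, and array 1 was now the higher one for both. Places were 16 for miR-221 and 21 for miR-222, and 30 of 373 miRNAs (8.04%; 13.4% on both sides together) passed on that side, or 15 of the 66 bright ones (22.7%). The trend acted on the spread more than on the mean. The technical SD of miR-221, 0.01 as deposited, stood at place 7 of 373 in ascending order, and at place 322 with the trend removed. The SD of miR-222 stood at place 326 as deposited and 262 without the trend. The median technical SD of the 66 bright miRNAs was 0.99 as deposited and 0.45 with the trend removed. The near equality of the deposited arrays of miR-221 was thus lost with the trend. Across all 373 miRNAs the turned arrays correlated with r = 0.43 once the trend was removed, against -0.08 as deposited.

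The part of the ratio that follows the dye, the difference between the turned arrays divided by 2, says the same per miRNA. It was 0.01 for miR-221 and 0.58 for miR-222, beside a median of 0.70 over the 66 bright miRNAs and 0.05 over the 307 dimmer ones. With the trend removed it was -0.43 for miR-221 and -0.28 for miR-222.

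The 2 miRNAs did not differ from each other beyond the technical spread. miR-222 minus miR-221 was -0.49 on array 1 and 0.65 on array 2, a mean of 0.08 ± 0.81. With the trend removed the difference was -0.17 and 0.12, a mean of -0.03 ± 0.21. It changed sign between the arrays in either case. The probe sequences were not used here, and cross-hybridisation between these partly identical miRNAs was not tested.

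The authors' deposited table gives smaller differences on the same side. It lists a log2 fold change of 0.60 for miR-221, or 1.52-fold, and of 0.53 for miR-222, or 1.44-fold, so that miR-221 reached 1.5-fold there and miR-222 did not. There 14 of 373 miRNAs (3.75%; 9.38% on both sides together) reached 1.5-fold on this side, 9 of them among the 66 bright ones (13.6%), with miR-221 at place 12 and miR-222 at place 18. The authors' value was 0.62 of the mean turned ratio for miR-221 and 0.51 for miR-222. These shares are near the median of 0.54 over the 33 miRNAs past the rule on this side. miR-221 was thus among the 12 of 373 miRNAs (3.22%) past 1.5-fold on this side in all 3 sets of values: the deposited ratios, those without the trend, and the fold changes of the authors. The authors' deposited table also gives an unadjusted p-value of 0.0572 for miR-221 and 0.0214 for miR-222. What served as replicates for them is not stated. With 1 pool per condition, these p-values cannot measure the spread between experiments, whether or not they pass a threshold. Adjusted here by Benjamini-Hochberg over its 1677 probes with a p-value they are 0.389 and 0.21, so neither passes 0.05 in that table, whereas miR-21 does with 0.000225.

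Likeness of pattern was measured as the distance between the pairs of turned array values. The 4 miRNAs nearest to miR-221 as deposited were miR-30d (0.87 and 1.03), miR-324-5p (0.82 and 0.99), miR-674 (0.64 and 1.08) and miR-685 (1.01 and 1.36), at distances of 0.11 to 0.39. Those nearest to miR-222 were miR-31* (0.57 and 1.55), miR-26a (0.598 and 1.602), miR-542-5p (0.61 and 1.83) and miR-212 (0.64 and 1.41), at 0.13 to 0.28. The pair itself lay farther apart, at 0.82, and miR-222 was only the 36th nearest of 372 miRNAs to miR-221. With the trend removed the distance within the pair was 0.21, and miR-222 was the third nearest to miR-221 after miR-31* and miR-26a. Both then had the same 4 nearest miRNAs outside the pair, namely miR-31*, miR-26a, miR-30d and miR-212. This likeness rests on 2 arrays of the same pools.

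**Figure D3:**
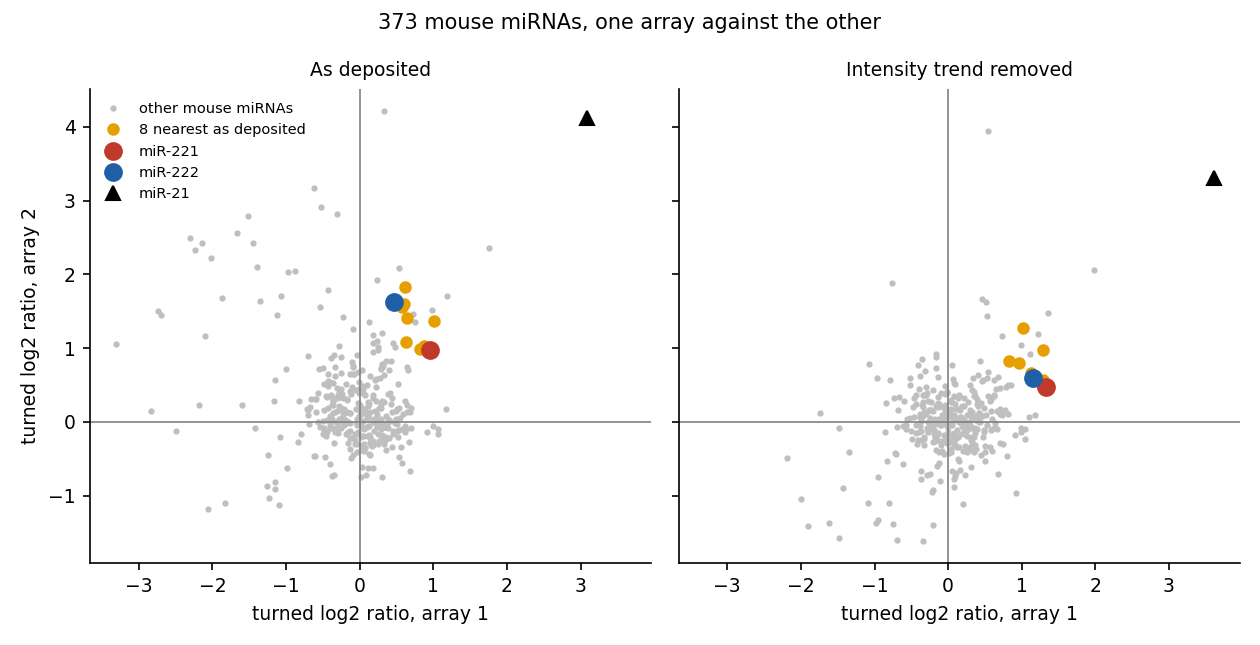
Turned log2 ratios of 373 mouse miRNAs, array 1 on the horizontal and array 2 on the vertical axis, as deposited and with the intensity trend removed. miR-221 (red) and miR-222 (blue) lie in the quadrant of miR-21 (triangle) in both panels, and their distance is 0.82 in the left and 0.21 in the right panel. Orange points are the 8 miRNAs nearest to either as deposited.

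Probes of like brightness differed. The 4 miRNAs nearest to miR-221 in average intensity, miR-706, miR-98, miR-467a* (a probe shared with miR-467d*) and miR-17, had means of 0.07 to 0.12, and 0 of them passed the rule. Around miR-222, 6 miRNAs tied for the nearest places. Of these miR-26a had 1.10 and miR-31* had 1.06, both past the rule on miR-21's side. miR-27a and miR-130a had 0.28 each. miR-200b, an epithelial miRNA, had -0.81 and passed on the opposite side, and miR-805 had -0.68 with arrays of opposite sign. On miR-21's side 0 of 4 passed around miR-221 and 2 of 6 around miR-222. Of the 66 miRNAs at least as bright as miR-221, 17 passed there (25.8%). Beside that share, counts this small say little, and the part of brightness in the values of the pair was not tested.

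The genes of 46 compared miRNAs, miR-221 and miR-222 included, lie on chromosome X by RefSeq, in which 314 of the 373 array names were found. 4 of the other 44 also have a gene on another chromosome. Of these 44, 2 were past the rule on miR-21's side and 0 opposite, where the shares over all 373 were 8.85% and 3.22%. Their median was 0.03, beside 0.08 over all 373. Their average log2 intensity had a median of 6.995, below the 7.16 over all 373 and below both members of the pair. Of the 45 miRNAs past the rule, 44 were of at least median brightness. The highest was miR-542-5p, from a cluster with miR-322 and miR-503, with 0.61 and 1.83 on the arrays and a mean of 1.22 ± 0.86. The other one past the rule was miR-106a, of a cluster related to that of miR-17, with 0.25 and 1.02 and a mean of 0.63 ± 0.54. The lowest was miR-503, a cell-cycle miRNA, with -0.55 ± 0.25. With the trend removed, miR-542-5p still passed on miR-21's side, where 30 of all 373 did (8.04%). On the opposite side 2 passed, miR-452 and, at the edge of the rule with -0.588, miR-503. Of all 373, 20 passed there. Counts this small say little about the list.

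Other miRNAs described as repressors of Cdkn1b were set beside the pair. Of these 5, 0 passed the rule in any of the 3 sets of values. With shares over all miRNAs of 12.1%, 13.4% and 9.38% on both sides together, a count of 0 among 5 says little about the list. Their median was 0.09, from miR-24 with 0.48 to miR-148a with -0.54. miR-24 was among the brightest probes and had -1.45 and 2.42 on the arrays, and with the trend removed -0.04 and 0.48. The level of Cdkn1b itself was not analysed here.

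**Figure D4:**
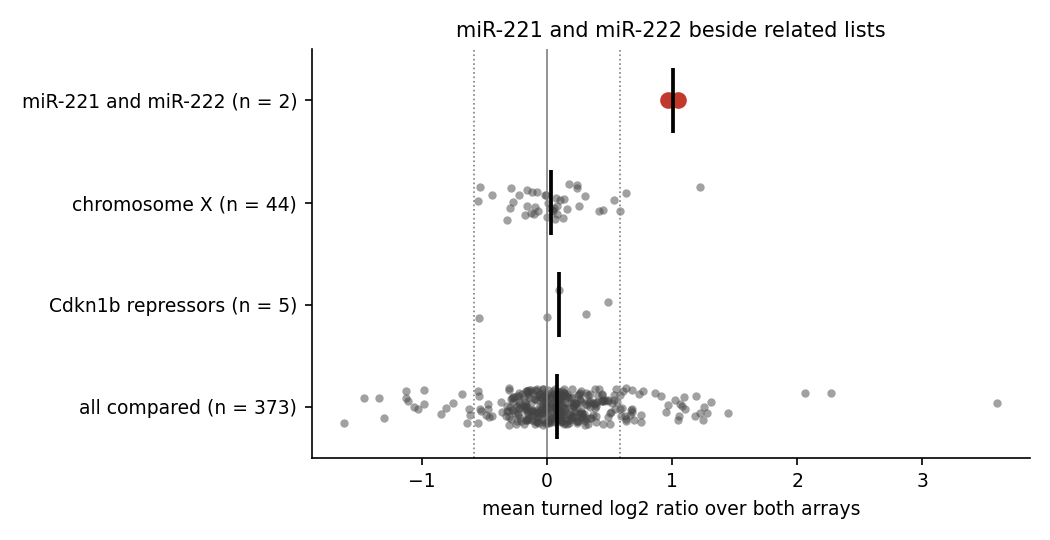
Mean turned log2 ratio over both arrays for miR-221 and miR-222, for the other X-linked miRNAs, for other miRNAs described as repressors of Cdkn1b, and for all 373. Each point is a miRNA, black bars are medians, and dotted lines mark 1.5-fold on either side. The pair has a median of 1.01, while the lists have medians of 0.03 and 0.09. The X-linked list is dim, with a median average log2 intensity of 6.995, below both members of the pair.

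The cell label was checked on marker miRNAs, as far as brightness allows, since it also depends on the probe. The highest average intensity among probes that the authors' table gives no fold change was 6.99. All 7 epithelial and keratinocyte markers (the miR-200 family with miR-141 and miR-429, miR-203 and miR-205) were brighter than that, at 7.16 to 11.9. So were 3 of 4 measured fibroblast and smooth muscle markers (6.83 to 8.20), 2 of 3 muscle markers (6.75 to 8.12), 2 of 2 neuron markers (7.07 and 7.10), 1 of 2 endothelial markers (the arms of miR-126, at 7.0 and 6.85) and 1 of 4 measured blood cell markers (6.67 to 7.52). This limit does not set the epithelial markers apart from the other lists. Of the 7 epithelial markers, 3 passed the rule opposite to miR-221 and miR-222, where the share over all miRNAs was 3.22%. On the side of the pair, where the share over all miRNAs was 8.85%, miR-143 of the fibroblast list passed with a mean of 2.06. The others measured in that list did not pass: miR-145 had 0.24, miR-199a-5p 0.01 and miR-214 0.11. In the endothelial, blood, neuron and muscle lists 0 passed on either side. With shares over all miRNAs of 8.85% and 3.22%, that says little about lists so short. Endothelial cells are known for abundant miR-221 and miR-222, and the arms of miR-126 had means of -0.17 and 0.14. The part of other cells in the values of miR-221 and miR-222 was not tested. In pooled RNA, a change in the share of cells and a change per cell cannot be told apart.

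**Figure D5:**
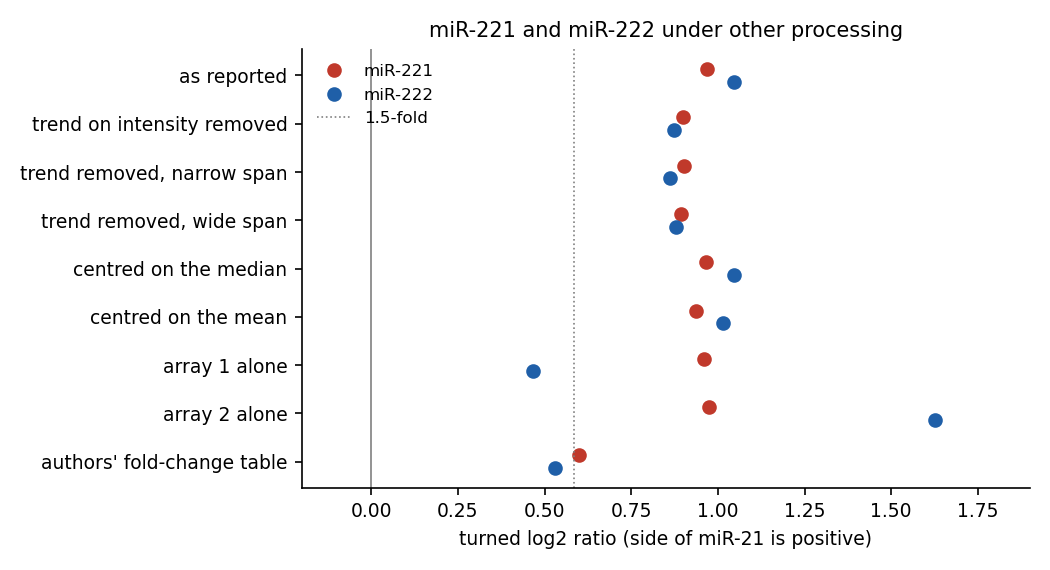
Turned log2 ratio of miR-221 (red) and miR-222 (blue) as reported and under 8 other settings, with 1.5-fold as the dotted line. All values are above 0. miR-222 on array 1 alone (0.47) and in the authors' deposited table (0.53) is below 1.5-fold, and miR-221 in that table (0.60) is just above it.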

How the data were processed

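Total RNA was labelled and hybridised to miRNA arrays of locked nucleic acid probes, per the labels. The authors deposited a processed log2 dye ratio for each of 2244 features on each array. How it was normalized and centred, and in which dye order, is not given in the sources used here; its medians were 0.039 and 0.040. Their other table has, per the file headers, for 2101 probes the fold change on a log2 scale and as a signed fold, the mean log2 intensity and a p-value before adjustment; its log scale was read from the signed folds. Both tables were joined by probe. Array 1 was given the opposite sign and the arrays were averaged; they hold the same 2 pools and count as 1 replicate.

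Compared were 376 mouse probes with a fold change, for 373 miRNAs, averaged per miRNA. Left out were 46 mouse probes without one. The alternative without the trend subtracts a lowess fit on average intensity (span 0.3, 2101 probes). The steps were tested on simulated data. Those were built on the fitted trend itself, with less noise than the residual spread of the arrays. They do not show how well the steps recover changes in these data. Named are the members, miR-21, the 4 miRNAs nearest in pattern and in brightness (ties kept), and the highest and lowest of each list. Other list members are named where a small count needs them and were chosen after their values were seen, as was the comparison with the 66 bright miRNAs. One planned list is not reported here. Members and lists were chosen with earlier results of these data known. Lowess came from statsmodels 0.14.6, tables from pandas 2.3.3 and NumPy 2.4.6, the adjustment of p-values from SciPy 1.17.1 and figures from matplotlib 3.10.9, under Python 3.11.15.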

Additional observations from a re-analysis of the deposited data

How the results depend on the processing

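miR-221 and miR-222 were on the side of miR-21 under all 8 other settings run. With the trend removed, miR-221 had 0.90, and 0.90 and 0.89 with spans of 0.2 and 0.5. It had 0.94 with arrays centred on their mean and 0.60 in the authors' deposited table. Its own technical SD is so small that these shifts exceed it; those of miR-222 stayed within its SD. On single arrays miR-221 ran from 0.96 to 0.97 and miR-222 from 0.47 to 1.63. The part that follows the dye was -0.43, -0.42 and -0.43 for miR-221 and -0.28, -0.27 and -0.28 for miR-222 with the trend removed at spans of 0.3, 0.2 and 0.5, and -0.12 and 0.46 with arrays centred on their mean. Of the pair, 1 reached the threshold at 2-fold (miR-222) and 1 in the authors' deposited table (miR-221). As deposited, 1 did so on array 1 alone (miR-221) and 2 on array 2 alone. Over all 373 mouse miRNAs the count of 45 was 82 at a lower threshold of 0.32 on the log2 scale and 22 at 2-fold. It was 85 on array 1 alone and 104 on array 2 alone. The authors' table has 2101 probes, 1586 of them of other species, and over all its features 120 passed. No other arm of the hairpins gave a value. No paired analysis was possible because 1 pair of pools was measured. Brightness is known only as an average over channels and arrays, so signal over background could not be judged per pool.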
